A study of Rattus norvegicus with 4 samples.

Results

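The collagen chain genes are the genes that encode the alpha chains of the collagens, the main structural proteins of connective tissue. They were taken from the array by name, as every probe whose gene name is Col, a type number, the letter a and a chain number, after a trailing _predicted or _mapped had been dropped. This gave 52 of the 41012 probes on the array, which stand for 32 of its 15505 named genes. The rule reads gene names alone. It was chosen with earlier results of these data known, so the counts below are descriptions. The genes comprise 10 fibrillar collagens with 20 probes, 4 basement membrane collagens (type IV) with 6 probes, and 18 others with 26 probes.

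RNA came from the mucosa of the colon of inbred F344 rats, and all of the rats, treated or control, drank 5% dextran sodium sulphate (DSS) over 5 days, which damages the epithelium and brings on colitis. The treated rats had first received the polyphenol resveratrol (1 mg/kg/day, 20 days), whereas control rats ate standard chow. Each of 4 arrays set RNA from 2 resveratrol plus DSS rats, labelled with Cy5, against a pool of DSS control rats, labelled with Cy3, and the 4 arrays are replicates 1 to 4 of a single group. The design text gives 8 biological samples per group. The sources used here do not give the number of control rats in the pool, or whether every array had the same pool. No group without DSS was measured, and no array had its dyes exchanged. Replicates 1 and 2 lay on slide 1, and replicates 3 and 4 on slide 2. All values below are log2 ratios of Cy5 over Cy3 unless a level is named, so a negative value means lower with resveratrol. A probe was called lower or higher at an adjusted p under 0.05, in a limma fit over all 18869 tested probes with Benjamini-Hochberg adjustment. Errors (±) are moderated standard errors from that fit. The p-values measure the spread between the 4 arrays and leave out the spread of the pool, which counts as 1 control sample.

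Collagen chains assemble into helices that are secreted, trimmed and laid down as fibrils or sheets. Types I, III and V form the fibrils of the lamina propria and submucosa and are made mainly by fibroblasts and smooth muscle cells. Type IV forms the sheet-like network of the basement membranes beneath the epithelium and around vessels and muscle cells. Further collagens sit on fibril surfaces, anchor basement membranes, build beaded filaments or span the cell membrane.

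The 4 probes printed here were chosen to set the brightest probe of Col1a1 beside probes of other fibrillar genes and a second Col1a1 probe. The first is the brightest probe of Col1a1, the second the single probe of Col3a1, the third a probe of Col5a2, and the fourth a second probe of Col1a1. Capitals mark CCCATCAT, the longest run of bases that the probes of Col5a2, of Col3a1 and the brightest of Col1a1 have in common.
Col1a1, brightest probe (A_44_P419137): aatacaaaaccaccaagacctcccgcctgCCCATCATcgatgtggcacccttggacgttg
Col3a1 (A_44_P146518): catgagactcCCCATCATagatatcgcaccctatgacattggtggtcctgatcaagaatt
Col5a2 (A_44_P392849): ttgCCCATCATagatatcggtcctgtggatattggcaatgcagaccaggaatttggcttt
Col1a1, second probe (A_44_P350521): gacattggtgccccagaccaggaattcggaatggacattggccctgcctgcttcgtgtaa

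The files place these probes in the rn3 build at chr10:83652273-83652332, chr9:44318879-44318938, chr9:44376974-44377033 (minus strand) and chr10:83652326-83652385. Exons and untranslated regions of that build were not analysed here. Col3a1 and Col5a2 are neighbours on chromosome 9, with 58095 bases between the starts of the probes shown. The run CCCATCAT, searched on the strand of the probes, is in 42 of the 41012 probes on the array (0.102%). Aligned on it without gaps, the probes of Col1a1 and Col3a1 were identical at 29 of 41 bases (70.7%), those of Col1a1 and Col5a2 at 24 of 34 (70.6%), and those of Col3a1 and Col5a2 at 37 of 53 (69.8%). The likeness lies between different genes, and how far such probes bind each other's transcripts was not tested. The Col1a1 probes printed first and last overlap by 7 bases on the genome and differ there by G57A, with positions counted from 1 at the 5′ end of the brightest probe. The remaining Col1a1 probe (A_44_P238421) starts 274 bases after the brightest, so that all 3 lie within 334 bases.

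Collagen genes were mostly lower with resveratrol, and none was higher. Of the 32 genes, 21 could be tested. Read through its brightest probe, 15 of these 21 were lower, none was higher and 6 were not called. Over all 9414 genes tested the same way, 19.6% were lower and 25.7% were higher. The median log2 ratio of the 21 genes was -0.51, against 0.02 over all genes. By probe, 21 of 32 tested collagen probes were lower and none was higher, against 22.7% and 24.4% of all 18869 probes. The mean lay below 0 for 29 of the 32. These counts cover only probes that passed the filter on dim signals, as 34 of the 52 did, and 2 of these lacked values. Of the 32 tested, 5 passed through the pool's channel alone which favours lower values, and all 5 were lower. Among the 27 that were also bright enough in the resveratrol channel, 16 were lower.

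The call depended on the arrays used and on the centring. The brackets give all probes on the array called the same way in that setting. Without replicate 1 there were 8 of 18 tested collagen genes lower (1517 of 16274 probes). Without replicate 2 there were 8 of 18 as well (1426 of 16383 probes). It was 11 of 21 without replicate 4 (2930 of 18759 probes) and 14 of 21 without replicate 3 (4213 of 18660 probes). With the slide as a random block 12 of 21 were lower (3213 of 18869 probes). Slide 1 alone gave 13 of 21 lower and 2 higher (4670 and 6095 of 18329 probes). Slide 2 alone gave 4 of 16 lower and none higher (1002 and 747 of 14485 probes). Median centring in place of loess put the median over all probes at 0.20 rather than -0.02. It gave 8 of 21 collagen genes lower and 3 higher (1839 and 6852 of 18869 probes). With the standard error widened to allow the pool a spread of its own, 6 of 21 were lower (724 of 18869 probes). When each gene was the mean of its tested probes, 16 of 21 were lower.

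**Figure D1:**
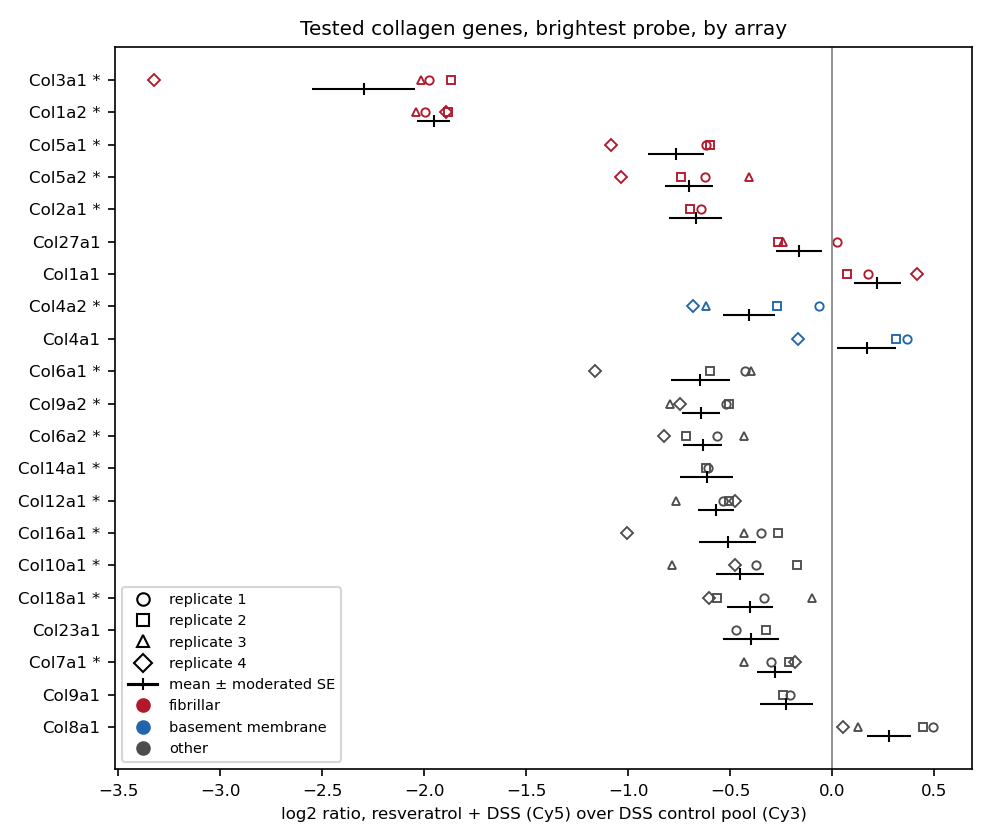
Log2 ratio (x axis) of each of the 21 tested collagen genes (y axis) by its brightest probe, with open symbols for the single arrays and a bar for the mean ± moderated standard error. An asterisk marks genes called lower: Col3a1 and Col1a2 lie near -2 on 3 or more arrays, most others between -0.3 and -1, and Col1a1, Col4a1 and Col8a1 have means above 0.

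Among the fibrillar collagens, which form the banded fibrils of connective tissue, 5 of 7 tested genes were lower by their brightest probe and 2 were not called, with a median of -0.70. By probe, 10 of 13 were lower. All 5 collagen probes with a call and a mean at or below -1 were fibrillar, and they belong to Col1a1, Col1a2 and Col3a1. Of all tested probes, 1.64% met the same limits. From the lowest of all 18869 probes, the lowest probe of Col1a1 ranked number 7, that of Col3a1 number 13 and that of Col1a2 number 23.

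Col3a1 encodes the chain of type III collagen, which shares fibrils with type I in the gut wall and in vessels. Its ratios were -1.98, -1.87, -2.02 and -3.32 on replicates 1 to 4. Replicate 4 was far below the others, which lay within 0.2 of each other, and all 4 were negative. The mean was -2.30 ± 0.25 (n = 4 arrays, adjusted p = 0.00451), a 4.91-fold difference. Without replicate 4 it was -1.95 (adjusted p = 0.0116).

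Col1a2 encodes the second chain of type I collagen, the most abundant fibril protein. Its brighter probe (A_43_P12783) read -1.997, -1.88, -2.04 and -1.89, the closest agreement among the strongly lowered collagens. The mean was -1.95 ± 0.08 (n = 4, adjusted p = 0.000915). The dimmer probe (A_44_P458851) read -1.13, -1.32, -1.17 and -1.80, with a mean of -1.35 ± 0.13 (n = 4, adjusted p = 0.00409). Both probes were thus lower on every array, by 3.87-fold and 2.56-fold.

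Col1a1 encodes the other chain of type I collagen, and its 3 probes did not give the same picture. The probe A_44_P238421 read -2.83, -2.09, -2.49 and -3.42, with a mean of -2.71 ± 0.21 (n = 4, adjusted p = 0.00404). The second probe printed above read -1.23, -1.34 and -1.86, with a mean of -1.48 ± 0.15 (n = 3, adjusted p = 0.00514), its spot on replicate 4 being an outlier by the scanner software. The brightest probe read 0.18, 0.07 and 0.42, with a mean of 0.22 ± 0.12 (n = 3, adjusted p = 0.158). Its arrays do not overlap with those of the other probes, although its last 7 bases cover the first 7 of the second probe on the genome.

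In normalized log2 intensity the brightest Col1a1 probe lay at 13.99 in the pool's channel and at 14.21 in the resveratrol channel, while A_44_P238421 lay at 12.30 and 9.59 and the second probe at 11.44 and 9.96. As 1 gene read through the mean of the probes with a value on each array, Col1a1 was at -1.52 ± 0.18 (adjusted p = 0.00531). That mean held all 3 probes on replicates 1 and 2 only. It lacked the brightest probe on replicate 3 and the second probe on replicate 4, so it mixes unlike sets of probes. Read through the brightest probe it was not called, and it was higher with the scanner's processed signals (0.50, adjusted p = 0.0338), under median centring (0.70, adjusted p = 0.00192) and with outlier spots kept (0.72, adjusted p = 0.00871). In the files the brightest probe carries another sequence record than the other 2 probes, under the same gene name. Which of the 3 probes follows the Col1a1 transcript was not tested.

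**Figure D2:**
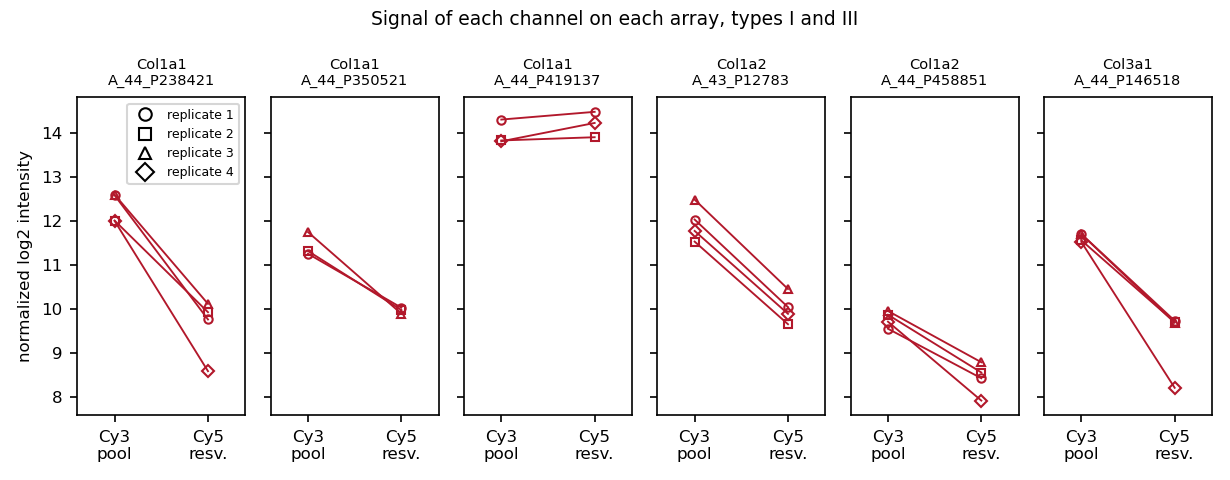
Normalized log2 intensity (y axis) of the pool's channel (Cy3) and the resveratrol channel (Cy5) for the 6 tested probes of Col1a1, Col1a2 and Col3a1, with a line for each array. Lines fall from Cy3 to Cy5 for every probe except the brightest probe of Col1a1 (A_44_P419137), which lies near 14 in both channels.

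Type V collagen starts the assembly of type I fibrils and sets their width. Its chain gene Col5a2 had 3 probes, all lower. The brightest read -0.62, -0.74, -0.41 and -1.03 (mean -0.70 ± 0.12, n = 4, adjusted p = 0.00884), and the others had means of -0.66 ± 0.17 and -0.58 ± 0.12 (n = 4 each, adjusted p = 0.0264 and 0.0137). All 12 values were negative. The resveratrol channel was well above background on 3 arrays for the brightest of these probes and on 1 array for each of the others, and 2 of the 3 overlap by 40 bases. The dimmer pair were not called without replicate 1 (adjusted p = 0.0622 and 0.0582) or replicate 2 (0.0698 and 0.0606).

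Col5a1, the main chain of type V, read -0.62, -0.60 and -1.08 by its brightest probe (mean -0.77 ± 0.14, n = 3, adjusted p = 0.0136). Its second probe read 0.04, -0.09, -0.68 and -0.14 (mean -0.22 ± 0.13, n = 4, adjusted p = 0.208) and was not called. The values of the probes overlap on replicate 3 of the second alone. Under median centring the brightest probe was at -0.43 and was not called (adjusted p = 0.0689).

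Col2a1 and Col27a1 are known mainly as fibrillar collagens of cartilage. Col2a1 read -0.64 and -0.70 on the arrays of slide 1 (mean -0.67 ± 0.13, n = 2, adjusted p = 0.0232), and its spots on slide 2 were outliers. In normalized log2 intensity this probe lay at 12.28 in the pool's channel and 11.61 in the resveratrol channel, against 11.62 and 9.33 for Col3a1. The second Col2a1 probe, at 7.39 and 7.15, was not well above background on enough arrays to be tested. Whether the brighter probe follows the Col2a1 transcript was not tested. Under median centring the Col2a1 value was -0.20 (adjusted p = 0.533). Col27a1 read 0.02, -0.26 and -0.24 (mean -0.16 ± 0.11, n = 3, adjusted p = 0.27) and was not called. The type XI chain genes Col11a1 and Col11a2 and the type V chain gene Col5a3 were not tested, because no probe of theirs was well above background on at least 3 arrays.

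Of the type IV chain genes of basement membranes, Col4a1 and Col4a2 could be tested. Their chains assemble with each other in most basement membranes, and their genes lie head to head. In the GRCr8 assembly of RefSeq 76 bases lie between the annotated starts, at chr16:84885521-84885596, and these bases are shown because both genes start from them.
Between Col4a2 and Col4a1: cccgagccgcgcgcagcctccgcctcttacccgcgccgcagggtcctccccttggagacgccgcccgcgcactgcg

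Col4a2 read -0.06, -0.27, -0.62 and -0.68, with the values of slide 2 below those of slide 1, and its mean was -0.41 ± 0.13 (n = 4, adjusted p = 0.0421). It was not called when any array was left out (adjusted p = 0.0513, 0.0927, 0.083 and 0.115 without replicates 1 to 4), with the slide as a random block (adjusted p = 0.0559) or under median centring (-0.04, adjusted p = 0.88). Col4a1 read 0.37, 0.31 and -0.17 by its brightest probe (mean 0.17 ± 0.14, n = 3, adjusted p = 0.352). Its second probe, 112137 bases away on chromosome 16 of rn3, read -0.33 and -0.24 (mean -0.29 ± 0.13, n = 2, adjusted p = 0.14). Neither probe of Col4a1 was called, and they have opposite signs on replicates 1 and 2. The brightest probe was called higher under median centring (0.67, adjusted p = 0.0032), with outlier spots kept (0.69, 0.00526) and on slide 1 alone (0.34, 0.0227). No single direction thus holds for Col4a1.

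Col4a4, a chain known from the kidney's filtration barrier and other specialised basement membranes, was well above background in both channels on all 4 arrays but had a usable spot on 1 array only, and was not tested. Col4a5 was above background in the pool's channel alone, on 2 arrays at most, and was not tested either.

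**Figure D3:**
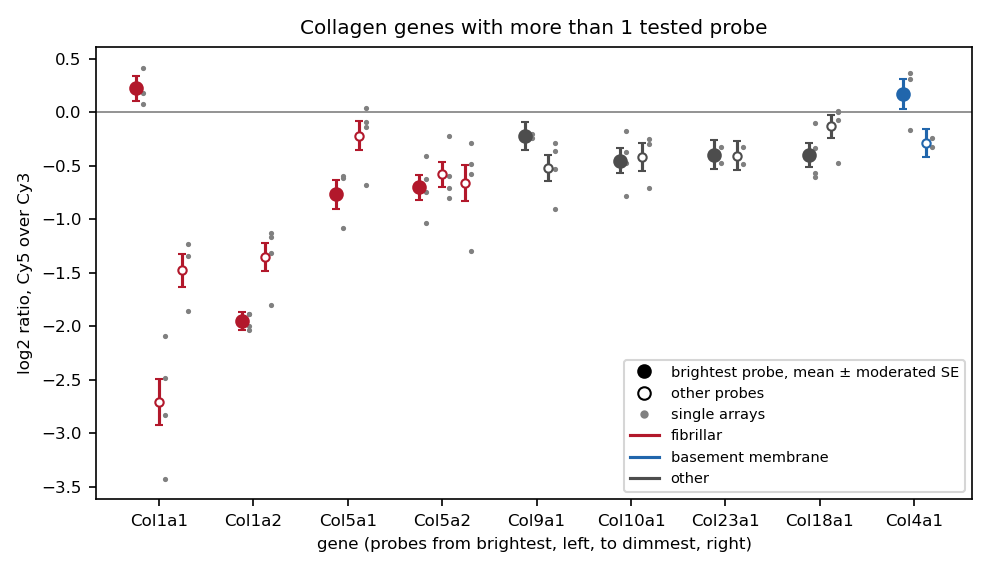
Mean log2 ratio ± moderated standard error (y axis) of each tested probe of the 9 collagen genes with more than 1 tested probe (x axis), the brightest probe filled and leftmost, small grey points giving single arrays. The probes of Col1a1 spread from 0.22 to -2.71, those of Col4a1 lie on either side of 0, and those of Col5a2, Col10a1 and Col23a1 lie close together.

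Among the other collagens, 9 of 12 tested genes were lower by their brightest probe and 3 were not called, with a median of -0.48. None of them reached -1 as a mean, and the lowest was -0.65. The medians over the 9 genes with values on all arrays were -0.37, -0.50, -0.43 and -0.61 on replicates 1 to 4. The 3 fibrillar genes with all values had medians of -1.98, -1.87, -2.02 and -1.89 on the same arrays. This leaves out Col1a1, Col2a1, Col5a1 and Col27a1, and the median of the means over all 7 tested fibrillar genes was -0.70. The difference between the classes was not tested.

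Type VI collagen forms beaded filaments around cells. Col6a1 read -0.43, -0.60, -0.39 and -1.16 (mean -0.65 ± 0.15, n = 4, adjusted p = 0.0184) and Col6a2 read -0.56, -0.72, -0.43 and -0.82 (mean -0.63 ± 0.10, n = 4, adjusted p = 0.00708). Both were lower on every array, with replicate 4 lowest. Col6a1 was not called without replicate 2 (adjusted p = 0.0595). The gene of a further chain, Col6a3, was above background in the pool's channel on 2 arrays and was not tested.

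Types XII, XIV, IX and XVI sit on the surface of fibrils. Col12a1, found on type I fibrils, read -0.53, -0.50, -0.77 and -0.48 (mean -0.57 ± 0.09, n = 4, adjusted p = 0.00747). Col14a1, also found on type I fibrils, read -0.61 and -0.62 on slide 1 (mean -0.62 ± 0.13, n = 2, adjusted p = 0.0272), and its other spots were outliers. It was at -0.35 and not called under median centring (adjusted p = 0.248). Col16a1 read -0.35, -0.26, -0.43 and -1.01 (mean -0.51 ± 0.14, n = 4, adjusted p = 0.03) and was not called without replicate 1 or 2 (adjusted p = 0.0673 and 0.0595). By the tested probes all 3 genes were lower on each array that gave a value. The second probes of Col14a1 and Col16a1 were not well above background on any array and were not tested. The second Col12a1 probe, which shares 40 bases with the first, was above background in the pool's channel alone, on 2 arrays, and was not tested. Col16a1 passed the filter through the pool's channel alone, with the resveratrol channel above background on 2 arrays.

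Type IX collagen decorates the type II fibrils of cartilage. Col9a2 read -0.52, -0.51, -0.80 and -0.75 (mean -0.64 ± 0.09, n = 4, adjusted p = 0.00635) and was called under each of the 17 alternatives that gave it a value. Col9a1 was not called by its brightest probe, at -0.21 and -0.24 (mean -0.22 ± 0.13, n = 2, adjusted p = 0.216). Its dimmer probe read -0.36, -0.53, -0.29 and -0.91 (mean -0.52 ± 0.12, n = 4, adjusted p = 0.0204), with the resveratrol channel above background on 2 arrays, and was not called without replicate 1 or 2 (adjusted p = 0.0541 and 0.0719). A further type IX chain gene, Col9a3, was not tested.

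Types VII, XV, XVII and XVIII belong to the basement membrane zone without being part of its type IV network. Col7a1, which forms anchoring fibrils, was at -0.28 ± 0.09 (n = 4, range -0.43 to -0.18, adjusted p = 0.0397) and was not called when any array was left out (adjusted p = 0.14, 0.123, 0.0825 and 0.0587 without replicates 1 to 4), with the slide as a random block (0.0687) or under median centring (-0.15, adjusted p = 0.502). Col18a1, the source of endostatin, read -0.33, -0.56, -0.10 and -0.61 by its brightest probe (mean -0.40 ± 0.11, n = 4, adjusted p = 0.0313). Its resveratrol channel was above background on 2 arrays. It was not called without replicate 1, 2 or 4 (adjusted p = 0.085, 0.127 and 0.0849). Its second probe, which overlaps the first by 37 bases, had a mean of -0.13 ± 0.11 (n = 4, adjusted p = 0.343). Col15a1 and Col17a1 were not tested.

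Types VIII and X form sheet-like networks. Col10a1, known from growth-plate cartilage, read -0.37, -0.17, -0.79 and -0.47 (mean -0.45 ± 0.12, n = 4, adjusted p = 0.0263). Its second probe was close, at -0.42 ± 0.13 (n = 3, adjusted p = 0.0523), and did not pass. The first was not called without replicate 1 or 4 (adjusted p = 0.0737 and 0.0664) or under median centring (-0.29, adjusted p = 0.157). Col8a1, known from vessel walls and the cornea, read 0.50, 0.44, 0.13 and 0.05, with the values of slide 1 above those of slide 2. It had the highest mean of all tested collagens, 0.28 ± 0.11 (n = 4, adjusted p = 0.0745), and did not pass here. It was called higher under median centring (0.52, adjusted p = 0.00923), with outlier spots kept (0.40, 0.0138), on slide 1 alone (0.47, 0.00626) and with array weights (0.35, 0.0293).

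The membrane-spanning collagen gene Col23a1 had 2 probes that gave nearly the same value on slide 1, -0.40 ± 0.14 and -0.41 ± 0.14 (n = 2 each, adjusted p = 0.0738 and 0.0715). Neither passed, and their spots on slide 2 were outliers. Col22a1 and Col8a2 were not tested. Col8a2 was well above background in both channels on all arrays but kept a usable spot on 1 array only.

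Base composition differed among the probes of these genes. The share of G and C ran from 35.0% to 73.3% over the 32 tested collagen probes, with a median of 50.8%, against a median of 45.0% over all tested probes. Across the 32 probes the share of G and C and the mean ratio had a Spearman rho of 0.64, against -0.16 over all 18869 probes. The points share the same arrays and pool, and some probes share a gene or overlap, so this is a description. Mean brightness and ratio had a rho of -0.04 in the collagen probes. The lowest Col1a1 probe and the brighter Col1a2 probe hold 35.0% G and C, and the 2 Col1a1 probes printed above hold 55.0% each while their ratios differ by sign. The overlapping hexamers CACCTC and ACCTCA were searched on the strand of the probes. Of the tested collagen probes only that of Col2a1 held either of them, namely ACCTCA. This share, 3.1%, was near the 3.8% of all tested probes (718 of 18869). What part base composition has in the ratios was not tested.

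**Figure D4:**
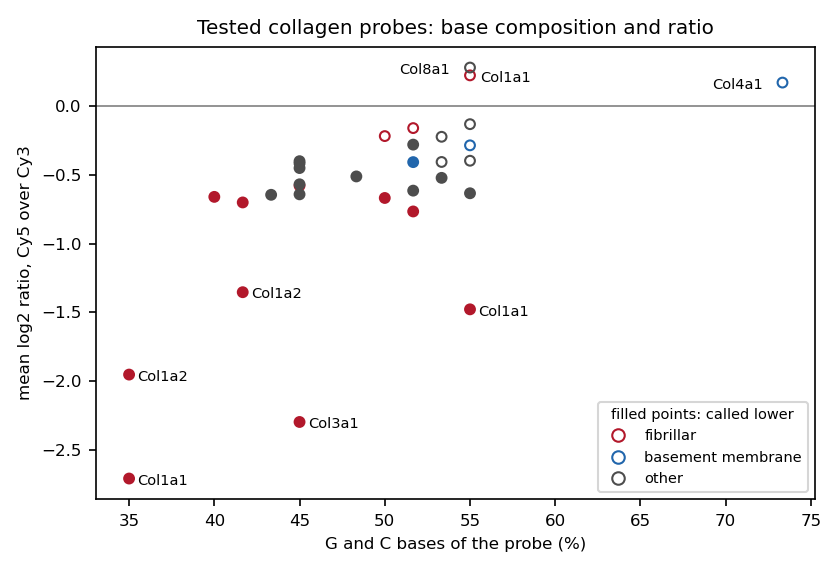
Mean log2 ratio (y axis) against the share of G and C bases (x axis, %) for the 32 tested collagen probes, coloured by class and filled where called lower. The lowest points lie at 35.0% to 55.0%, and the Col4a1 probe at 73.3% lies above 0.

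Promoter windows of 250 bases before the annotated start, from RefSeq's GRCr8 assembly, were found for 24 of the 32 genes. Both strands were searched for the letters CCAAT, for the GC box GGGCGG, and for the letters TATAAA, with no overlap between these motifs in the stretch printed. CCAAT was in 7 of the 24 windows, against 34.2% of 27457 windows of the same length. GGGCGG was in 14, against 32.3%, and TATAAA in 3, against 13.1%. Of the 10 windows that belong to genes called lower, 3, 5 and 2 held them. Col1a2 is shown because it had the closest agreement between arrays among the strongly lowered genes and its window holds CCAAT (read on the other strand as ATTGG, from 221 bases before the start) and TATAAA (from 170 bases before it), both in capitals. The stretch lies at chr4:33518307-33518406 of GRCr8 on the plus strand.
Col1a2, upstream stretch: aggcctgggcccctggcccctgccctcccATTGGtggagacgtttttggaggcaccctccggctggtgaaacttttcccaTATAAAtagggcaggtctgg

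Of the genes that process collagen, few were called. Chains are hydroxylated, folded, exported, trimmed and cross-linked by a shared set of proteins. Of 34 such genes, 32 were on the array and 19 were tested, of which 4 were lower, 2 higher and 13 not called, with a median of -0.21. The share of lower genes in this list was near the 19.6% of all genes, and that of higher genes was under the 25.7% of all genes. The lysyl oxidase relative Loxl1 fell to -0.66 ± 0.11 (n = 4, adjusted p = 0.00936). The collagen galactosyltransferase Colgalt1 was at -0.85 ± 0.24 (n = 3, adjusted p = 0.04) but was not called without replicate 1, 2 or 4 (adjusted p up to 0.0832). Outside the naming rule, the chaperone Fkbp14 (-0.40, adjusted p = 0.0423) and the procollagen-trimming protease Adamts14 (-0.27, adjusted p = 0.0371) were not called when any array was left out.

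In the same list P4hb, a folding enzyme and subunit of prolyl 4-hydroxylase, rose to 0.72 ± 0.09 (n = 4, adjusted p = 0.00541), with 0.89, 0.59, 0.82 and 0.58 on the arrays. Sec31a, part of the coat of export vesicles, rose to 0.46 ± 0.08 (n = 4, adjusted p = 0.0102), but was not called without replicate 1 (adjusted p = 0.0537) or replicate 2. P4ha1, the catalytic subunit of prolyl 4-hydroxylase, was at 0.00 ± 0.08 (n = 4, adjusted p = 0.991). Both P4hb and Sec31a serve other secreted proteins as well. Serpinh1, the collagen chaperone, was above background in both channels on all arrays but was left with too few spots for a test, and the cross-linking enzyme Lox was not above background on any array.

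Genes of proteins that decorate or organise the fibrils had calls in both directions. Of 23 listed genes, 21 were on the array and 11 were tested, of which 8 were lower and 2 higher, with a median of -0.69. Over all genes 19.6% were lower and 25.7% higher. Of the 8, 4 (Fn1, Fbn1, Dcn and Postn) passed the filter through the pool's channel alone, which favours lower values. Among the 7 genes also bright enough with resveratrol, 4 were lower and 2 higher. Sparc, a collagen-binding matricellular protein, read -0.57, -0.43, -1.52 and -1.90 (mean -1.11 ± 0.26, n = 4, adjusted p = 0.0207), with slide 2 well below slide 1. The fibril-binding proteoglycan Dcn fell to -0.87 ± 0.17 (n = 4, adjusted p = 0.0126), with the resveratrol channel above background on 1 array. Postn, which helps cross-linking, was at -0.77 ± 0.14 (n = 4, adjusted p = 0.0113), also with that channel above background on 1 array. Fn1, encoding fibronectin, was at least 1.71-fold lower (adjusted p = 0.00451), since no array had its resveratrol signal well above background. The bound takes that floor of detectable signal in place of the Fn1 value, and it is open to dye bias. The higher members were the elastic microfibril gene Fbn2 (1.73 ± 0.21, n = 4, adjusted p = 0.00505) and the collagen-binding adhesion gene Tgfbi (1.403 ± 0.18, n = 4, adjusted p = 0.00515). A second probe of Tgfbi was at -0.40 (adjusted p = 0.182).

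Among the enzymes that cut collagen and their inhibitors, 16 of 17 genes were on the array and 12 were tested. Of these 5 were lower and none higher, with a median of -0.42, against 19.6% lower and 25.7% higher over all genes. Of the 5, 1 (Mmp3) passed the filter through the pool's channel alone, which favours lower values. Among the 10 genes also bright enough with resveratrol, 4 were lower. The stromelysin Mmp10 fell to -1.54 ± 0.11 (n = 4, adjusted p = 0.00399) and its relative Mmp3 was at -0.66 ± 0.10 (n = 4, adjusted p = 0.00645), with the resveratrol channel above background on 1 array. The collagenase Mmp13 was at -1.07 ± 0.23 (n = 3, adjusted p = 0.0202), with -0.85, -0.64 and -1.72 on the arrays, and was not called without replicate 1 (adjusted p = 0.055). The inhibitor Timp3 was at -0.53 ± 0.13 (n = 4, adjusted p = 0.0208), and was not called without replicate 4 (adjusted p = 0.0605). The inhibitor Timp1 read 0.07, 0.10, -1.06 and -1.01, so that the slides lay apart, and its mean of -0.48 ± 0.24 was not called (adjusted p = 0.138). Of the collagen receptors, 4 of 11 listed genes were tested, of which 1 was higher and none lower. That share of higher genes was near the 25.7% of all genes. The higher gene was Ddr1, a collagen-activated kinase of epithelial cells, at 0.56 ± 0.11 (n = 4, adjusted p = 0.0128).

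**Figure D5:**
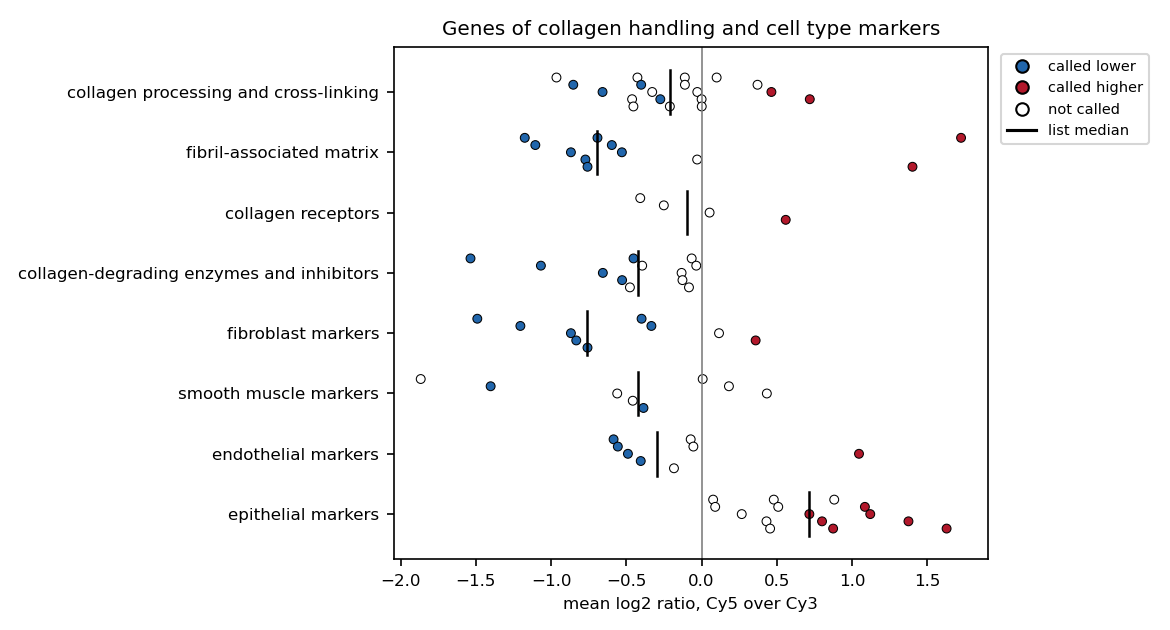
Mean log2 ratio (x axis) of each tested gene in 4 lists of collagen-handling genes and 4 lists of cell type markers (y axis), with blue for lower, red for higher, white for not called and a bar for the list's median. The fibril-associated and fibroblast lists have medians of -0.69 and -0.76, and the epithelial list has a median of 0.72.

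Markers of fibroblasts and smooth muscle cells, which make collagen, were read on the same arrays. In bulk mucosa fewer cells of a type and less RNA per cell cannot be told apart. Of 13 fibroblast markers 9 were tested, of which 7 were lower and 1 higher, with a median of -0.76. Over all genes 19.6% were lower and 25.7% higher. Of the 7, 3 (Dcn, Pdgfra and Fap) passed the filter through the pool's channel alone. Among the 6 markers also bright enough with resveratrol, 4 were lower and 1 higher. Vim, a mesenchymal filament gene, fell to -1.49 ± 0.20 (n = 4, adjusted p = 0.00583), S100a4 to -1.20 ± 0.18 (n = 4, adjusted p = 0.00705) and Dcn as above. Whether Vim and S100a4 follow fibroblasts alone in this tissue was not tested. Pdgfra, a growth factor receptor of fibroblasts, was at -0.83 ± 0.18 (n = 4, adjusted p = 0.0158), with the resveratrol channel above background on 1 array, and was not called without replicate 1 or 2 (adjusted p up to 0.0578). The transcription factor gene Twist2 was higher at 0.36 ± 0.08 (n = 4, adjusted p = 0.017), but was not called without replicate 1 or 2 (adjusted p up to 0.0805). Pdgfrb and Thy1 were not above background on any array. The summed signal of these markers ran from 2709 to 4257 in the resveratrol channel and from 5665 to 6905 in the pool's channel, over 8 genes in linear intensity, so that these ranges do not overlap. The sum leans on Vim and S100a4, the brightest of the 8 in the pool (11.00 and 10.69 in log2 intensity), and includes Dcn, Pdgfra and Fap. It therefore does not measure the list as a whole. Dcn and Fbln1 stand in this list and in that of fibril-associated genes. The probe used for Fbln1 was at -0.76 (adjusted p = 0.00492), and a second one was at 0.13 and not called (adjusted p = 0.551).

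Smooth muscle markers, of which 9 of 11 were on the array, had 2 of 8 tested genes lower and none higher, with a median of -0.42, a share of lower genes near the 19.6% of all genes. The lowest mean was that of Tagln, -1.87 (n = 4, adjusted p = 0.0577), and the highest that of Actg2, 0.43 (n = 4, adjusted p = 0.0795). Neither was called, and nor was Myh11, at -0.56 (n = 3, adjusted p = 0.268) and by a second probe -1.17 (n = 4, adjusted p = 0.108). Des, encoding desmin, read -0.44, -0.50, -1.48 and -3.19 (mean -1.40 ± 0.46, n = 4, adjusted p = 0.0471) and was not called when any array was left out. Without replicate 4 it was at -0.81 (adjusted p = 0.0516). Lmod1 was at -0.39 ± 0.09 (n = 4, adjusted p = 0.0181), and was not called without replicate 1 or 2 (adjusted p up to 0.0759). The summed signal of 6 genes ran from 6576 to 19135 with resveratrol and from 10995 to 16053 in the pool, so that these ranges overlap. Of 8 tested endothelial markers 4 were lower and 1 higher, against 19.6% and 25.7% of all genes. The lower ones were Tek, Eng, Vwf and Cdh5, from -0.58 to -0.40, with Tek and Cdh5 through the pool's channel alone. The higher one was Flt1, at 1.05 on 2 arrays (adjusted p = 0.0477). Each of the 5 lost its call when at least 1 array was left out.

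All 15 epithelial markers could be tested, and 7 of 15 were higher and none lower, with a median of 0.72. Over all genes 25.7% were higher and 19.6% lower. Muc2, the goblet cell mucin, was at 1.63 ± 0.20 (n = 4, adjusted p = 0.00492), and the keratin gene Krt18 at 1.38 ± 0.28 (n = 4, adjusted p = 0.0139). A second Krt18 probe was at 0.25 and was not called (adjusted p = 0.0674). The intestinal transcription factor gene Cdx1 was at 1.12 ± 0.11 (n = 4, adjusted p = 0.00409), and Krt20 at 1.09 ± 0.30 on 2 arrays (adjusted p = 0.0465; 0.0627 without replicate 1). The summed signal of 8 epithelial genes was 53043 to 91330 with resveratrol and 24104 to 43919 in the pool. This sum leans on Krt18 and Muc2, the brightest of the 8 (13.70 and 13.33 in mean log2 intensity), and does not measure the list as a whole. Neutrophil and macrophage markers had 6 of 7 tested genes lower, against 19.6% of all genes, and 1 of the 6 (Mrc1) passed through the pool's channel alone. They were led by S100a8 and S100a9, the calprotectin genes, at -3.17 ± 0.23 and -2.06 ± 0.27 (n = 4 each, adjusted p = 0.00388 and 0.00546), with Mrc1 at least 1.57-fold lower and Cd163 at -0.76. The S100a8 value rests on 1 probe, as its other probes were not above background on any array in either channel. The remaining gene, Cd14, was at 0.24 and not called (adjusted p = 0.137), and its slightly dimmer second probe was called higher at 0.73 (adjusted p = 0.00949). Pancreatic acinar markers, which colon mucosa should lack, had 9 of 10 tested genes lower, against 19.6% of all genes, 5 of them through the pool's channel alone. The amylase gene Amy2a3 was at least 23.4-fold and the trypsinogen gene Prss1 at least 3.18-fold lower, with the resveratrol channel at background on all arrays, and Ctrb1 and Prss2 were at -2.55 and -1.16. Their summed signal of 7 genes was 1836 to 2116 with resveratrol and 8620 to 10418 in the pool. This sum includes Amy2a3 and Ctrb1, the lowest of the list, and does not measure the list as a whole either. The part of fibroblast, muscle, epithelial, leukocyte or pancreatic RNA in the collagen ratios was not tested.

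The share of spots with signal well above background ran from 44.1% to 49.2% for Cy5 and from 42.8% to 57.1% for Cy3. Spots marked as outliers made up 3.45% and 4.68% on slide 1 and 11.0% and 13.7% on slide 2, which is why 12 of the 32 tested collagen probes had no value on 1 or 2 arrays. No collagen probe was saturated. Log2 ratios of the 20409 probes that passed the filter on dim signals correlated between arrays with r from 0.70 to 0.89. The number of arrays, 4, limits the precision.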

How the data were processed

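Per the file headers, the deposited scanner files hold the spot intensity values of both channels from Agilent Feature Extraction 9.5.3.1, with probe positions in rn3 and flags for outlier, saturated and background-level spots. Limma and Agilent Feature Extraction are named in the submitters' processing notes. The authors' deposited value table holds 24197 probes, whose values followed the log2 ratios of the scanner's processed signals with r from 0.981 to 0.992 and slopes of 0.972 to 1.00, which gives scale and direction; its column medians were -0.01, -0.01, 0.09 and -0.02, and its centring is not known. It served as an alternative only.

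Mean signals were corrected for local background with normexp (offset 50) and normalized by loess within each array in limma 3.58.1 (R 4.3.3). Weight 0 went to outlier-flagged spots and to the 1639 control spots among 45018, flagged values were dropped, and spots of a probe were averaged. A probe entered if on at least 3 arrays 1 channel or both stood well above background (20409 probes) and 2 or more values remained. This left 18869 probes, 14200 with 4 values, 1969 with 3 and 2700 with 2. Mean log2 ratios were set against 0, two-sided, with lmFit and eBayes, and adjusted by Benjamini-Hochberg at 0.05. A gene is its brightest tested probe, or, as an alternative, the mean on each array of its tested probes with a value there. Moderated standard errors draw on all probes, most so with 2 arrays. Fold bounds used loess and Aquantile levels. The fit was tested on simulated data with known changes.

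Names other than those of the collagens came from the accession for 10723 probes, the symbol for 5537 and a synonym for 3730 through RefSeq's gene table; 20970 had no name. Collagen names are the file's own.

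Samples were grouped by the labels, and replicate numbers follow accession order, so they pair nothing. Members and lists were chosen with earlier results of these data known, so counts in lists are descriptions. Every collagen gene is named; from each list the rule takes the 4 called members with the largest change, any called in the opposite direction, and Serpinh1, Lox, P4ha1, Sparc, Mmp13 and Timp1. Beyond it, Fkbp14, Adamts14, Postn, Fbln1, Fbn1, Fap, Tagln, Myh11, Actg2, Cdh5, Cd14, Cldn5 and Fcgr3a were named after their values were seen. Alternatives were other background corrections and centring, filters, the processed signals, outlier spots kept, leaving out each array, the authors' table, slides, array weights, an intensity trend in the prior and a standard error widened by the square root of 2.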

Additional observations from a re-analysis of the deposited data

Results flagged for a closer look

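Among 20 collagen probes with values on all 4 arrays, 1 had an array that stood far from the other 3, and among 73 genes of the companion and marker lists 3 did. Chance marks about 1 in 20 such groups. Col3a1 read -3.325 on replicate 4, against -2.017 to -1.867 on the others. The endothelial gene Eng read -0.8954 on replicate 1, against -0.457 to -0.4267. The endothelial claudin gene Cldn5 read -1.153 on replicate 3, against 0.2151 to 0.4099, and it was not called. The receptor gene Fcgr3a read -0.7428 on replicate 3, against -0.4938 to -0.4737.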

How the results depend on the processing

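The 21 collagen probes called lower had a mean below 0 under each of the 18 alternatives that gave them a value. They numbered 21 called of 21 with an offset of 10, without background correction, without the filter, with the authors' table and with an intensity trend, 20 with processed signals and array weights, 14 under median centring, 11 of 19 without replicate 1 and without replicate 2, and 5 of 17 on slide 2 alone. The 5 fibrillar probes below -1 kept their call wherever they had a value. Counts moved as follows. With both channels above background on all arrays, all called probes were 4551 in place of 8886, collagen probes 8, collagen genes 6, basement membrane genes 0, other collagens 2, fibril-associated genes 5 and degrading enzymes 2, as fewer probes were tested. On slide 2 alone they were 1749, 5 and 4, with 3 fibrillar, 0 basement membrane, 1 other, 2 processing and 6 fibril-associated genes. With the wider standard error they were 2180, 9 and 6, with 3 fibrillar, 0 basement membrane, 3 other, 1 processing, 5 fibril-associated, 0 receptor and 2 degrading genes. With outlier spots kept there were 2 basement membrane, 13 processing, 3 receptor and 8 degrading genes; on slide 1 alone 10 processing and 3 receptor genes; receptors were 2 without the filter, with the authors' table and with array weights, and basement membrane genes 0 with array weights and with a random block for the slide. Leaving out each array gave 3410 to 8964 probes, 11 to 21 collagen probes, 8 to 14 collagen genes, 4 to 5 fibrillar, 0 to 0 basement membrane, 4 to 9 other, 2 to 7 processing, 9 to 10 fibril-associated, 1 to 2 receptor and 3 to 5 degrading genes. A basement membrane count of 0 under limma rests on Col4a2 alone, whose adjusted p then lay between 0.0512 and 0.144. The cause of these moves was not tested unless fewer probes or arrays is part of the setting. No paired analysis was possible because the arrays form a single group.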
